A study of Mus musculus with 9 samples.

Results

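Fc receptors and the ITAM signalling chain behind them were followed in mouse peritoneal macrophages that carry one of 2 changes at a single residue of STAT6, the transcription factor activated by IL-4. The 10 genes were chosen by name for their roles, as receptors for IgG, adaptors with an ITAM, and enzymes or receptors that act beside them, and were found by symbol among the 55401 genes of the deposited count table. Earlier results of these data were known when the choice was made. The 10 genes are Fcgr1, Fcgr2b, Fcgr3, Fcgr4, Fcer1g, Tyrobp, Trem2, Syk, Sirpa and Plcg2. All 10 had enough counts to be tested, among 13501 tested genes.

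The 3 groups held 3 libraries each. SA macrophages came from mice labelled Stat6 S807A/S807A, in which serine is replaced by alanine, which cannot be phosphorylated. SE macrophages came from mice labelled Stat6 S807E/S807E, in which glutamate, whose charge resembles that of a phosphate, takes its place. WT macrophages carried the unchanged gene. All were primary peritoneal cells recruited with what the design text calls Thio, kept in DMEM with serum, and lysed after brief adherence. Poly(A) RNA was sequenced. Neither allele is restricted to macrophages by any label, and age, sex and the number of mice are not stated. Whether each library came from its own mouse is not stated, and p-values therefore reflect how much these 9 samples vary, which may be technical.

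Fc gamma receptors bind the constant part of IgG and let macrophages take up antibody-coated particles. Activating receptors cannot signal alone: Fcgr1, Fcgr3 and Fcgr4 hold on to the FcR gamma chain, encoded by Fcer1g, whose tyrosine motif (ITAM) is phosphorylated by Src family kinases and then recruits the kinase SYK. Tyrobp encodes DAP12, another ITAM adaptor, which serves TREM2 and several lectin receptors. Fcgr2b carries an inhibitory motif (ITIM) and recruits phosphatases that oppose the same signal, and SIRPA does likewise when it meets CD47 on another cell.

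The bases just upstream of the RefSeq start of the 4 Fc gamma receptor genes are shown because these genes, alone among the 10, passed a test in some contrast. Each window holds the 250 bases before the RefSeq transcription start, in build GRCm38.p6, read 5′ to 3′ on the gene's strand, and 8 of the 10 genes had an entry. Capitals mark matches to any of the 3 motifs described below. The windows lie at chr3:96293970-96294219 on the minus strand for Fcgr1, chr1:171059404-171059653 on the minus strand for Fcgr3, chr1:171018676-171018925 on the plus strand for Fcgr4 and chr1:170976072-170976321 on the minus strand for Fcgr2b. The RefSeq start is not always the 5′ end of the GENCODE gene, whose bounds are given with each receptor below. For Fcgr3 the start used lies 5532 bases inside the gene, at the 5′ end of 2 of its 4 GENCODE transcripts. A second RefSeq start of Fcgr3 lies 5541 bases inside the gene, at the 5′ end of 0 transcripts. The window before that second start is not shown. For Fcgr2b the RefSeq start lies 476 bases inside the gene, at the 5′ end of none of its 7 transcripts. For Fcgr4 it lies 6 bases inside the gene, and for Fcgr1 both starts are the same base.
Fcgr1: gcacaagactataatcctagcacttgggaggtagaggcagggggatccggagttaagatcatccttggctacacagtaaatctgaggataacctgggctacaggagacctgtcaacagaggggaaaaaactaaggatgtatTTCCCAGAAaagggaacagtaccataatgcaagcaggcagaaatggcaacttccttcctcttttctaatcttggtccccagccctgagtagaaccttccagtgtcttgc
Fcgr3: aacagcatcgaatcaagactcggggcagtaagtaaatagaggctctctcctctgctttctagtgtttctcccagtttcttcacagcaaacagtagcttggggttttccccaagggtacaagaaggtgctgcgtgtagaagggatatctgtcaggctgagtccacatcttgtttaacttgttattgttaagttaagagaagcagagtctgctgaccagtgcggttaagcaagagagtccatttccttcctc
Fcgr4: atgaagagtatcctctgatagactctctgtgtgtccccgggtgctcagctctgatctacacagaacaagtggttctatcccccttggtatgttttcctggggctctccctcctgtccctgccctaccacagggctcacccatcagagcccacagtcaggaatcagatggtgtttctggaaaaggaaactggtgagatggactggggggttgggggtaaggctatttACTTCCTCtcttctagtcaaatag
Fcgr2b: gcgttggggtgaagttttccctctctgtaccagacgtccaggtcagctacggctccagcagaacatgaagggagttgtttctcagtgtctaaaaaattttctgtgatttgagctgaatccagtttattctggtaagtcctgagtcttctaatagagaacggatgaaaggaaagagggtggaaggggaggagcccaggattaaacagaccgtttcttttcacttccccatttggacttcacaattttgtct

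Each motif was searched on both strands, and no 2 matches fell in the same window. TTCNNNNGAA, the spacing that STAT6 dimers favour, was found in 5.85% of the 32817 promoter windows in the table and, among the genes studied here, only in the window of Plcg2, as TTCTTGGGAA from 192 to 183 bases before the start. TTCNNNGAA, in which the same ends stand closer together, was found in 7.01% of windows. It matched the Fcgr1 window once, as TTCCCAGAA from 109 to 101 bases before the start. GAGGAAGT, a core bound by the macrophage factor PU.1, was found in 2.44% of windows and matched Fcgr4 on the opposite strand, 24 to 17 bases before the start. The windows of Fcgr2b, Fcgr3, Fcer1g, Syk and Trem2 held none of the 3 letter strings. A match of letters is a description of the sequence and not evidence of binding.

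Library totals ran from 17286617 to 24618608 counts, so that 3 counts were worth 0.120 to 0.176 CPM, the count scaled to library size, here after TMM scaling. Such limits cover counting error only. Stat6 itself averaged 198 ± 2.92 CPM in SA, 296 ± 14.6 CPM in SE and 195 ± 7.53 CPM in WT (SD, n = 3 each). It was higher in SE than in WT by 0.60 on the log2 scale (edgeR adjusted p = 6.27e-06). Gene counts cannot show the edited codon. WT2 and SE3 stood apart from WT1 and SE2 along the third principal component, which held 14.6% of the variance. Results were therefore also computed without WT2 and SE3, and without WT1 and SE2. All 8 macrophage markers on the list were tested and summed to 19049–19840 CPM in SA, 19083–21922 CPM in SE and 18978–24242 CPM in WT. Without the marker with the highest CPM, the others summed to 9261–9607 CPM in SA, 9470.5–10345 CPM in SE and 9501–10914 CPM in WT. Of the 8, 2 were lower in SA than in WT and 1 was lower in SE than in WT, at an edgeR adjusted p under 0.05. Between the mutants, 2 were higher in SE than in SA. The defining B cell gene Pax5 was at 0 in every library, as were Cd3e, Nkg7, Ncr1 and Gzma for T and NK cells, Mcpt4, Fcer1a, Tpsb2 and Mcpt8 for mast cells and basophils, and Ly6g and Retnlg for neutrophils. Other genes of these lists were detected. Cd22, known from B cells, had 21.6–23.6 CPM in SA, 24.3–29.5 CPM in SE and 23.9–24.8 CPM in WT and rose in SE relative to SA (adjusted p = 0.0413, by edgeR). Csf3r, the G-CSF receptor of the neutrophil list, had 163–189 CPM in SA, 187–208 CPM in SE and 163–187 CPM in WT and passed in no contrast. Of 5 eosinophil markers 2 were tested: Siglecf, at 13.7–14.9 CPM in SA, 16.1–20.9 CPM in SE and 17.6–19.8 CPM in WT, passed in no contrast, and Ccr3 was lower in SE, at 4.92–7.06 CPM, than in SA, at 8.31–11.8 CPM (edgeR adjusted p = 0.00596), beside 6.93–10.5 CPM in WT. The other eosinophil markers, Epx, Prg2 and Il5ra, reached at most 2, 1 and 1 counts in any library. The part of these genes in the results was not tested. In bulk RNA, fewer cells of a type and less RNA per cell cannot be told apart.

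Of the 10 genes, 3 were lower in SA than in WT, 2 were lower in SE than in WT, and 3 differed between SE and SA, of which 2 were higher in SE. Every one of these calls belonged to an Fc gamma receptor. Over all tested genes, 4.07% were called in SA against WT, 5.04% in SE against WT and 10.2% in SE against SA, at an edgeR adjusted p under 0.05. By direction, 1.97% of all genes were higher and 2.10% lower in SA than in WT, 2.35% were higher and 2.69% lower in SE than in WT, and 4.77% were higher and 5.42% lower in SE than in SA. The median size of the log2 change over the 10 genes was 0.089 in SA against WT, beside 0.092 over all genes. It was 0.051 in SE against WT, beside 0.115, and 0.071 in SE against SA, beside 0.129. Both mutants were set against the same WT libraries, so these 2 comparisons are not independent, and their values are given side by side.

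**Figure D1:**
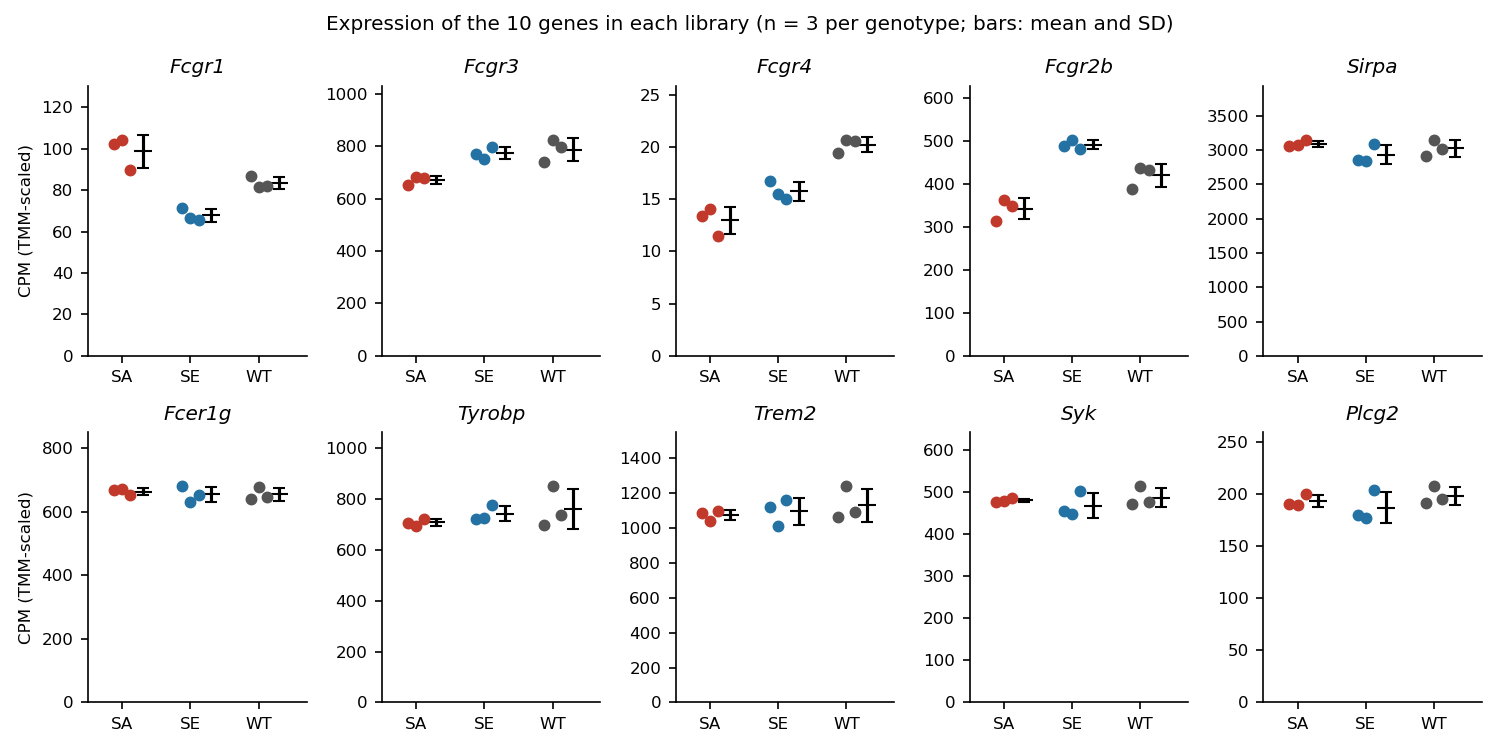
Each panel plots 1 gene, with the 3 libraries of SA, SE and WT macrophages as points on a linear CPM axis that starts at 0 and the mean and SD beside them (n = 3 each). Fcgr1 runs from 65.5 to 104 CPM with SA highest and SE lowest, Fcgr2b runs in the opposite order, and the points of Sirpa, Fcer1g, Tyrobp, Trem2, Syk and Plcg2 overlap between genotypes.

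Fcgr1 encodes the high-affinity receptor, which binds single IgG molecules. It lies on chromosome 3, at 96282909 to 96293969 on the minus strand (mm10, GENCODE M21). It had 102, 104 and 89.5 CPM in SA, 71.1, 66.7 and 65.5 CPM in SE, and 86.9, 81.6 and 81.8 CPM in WT. All SA libraries lay above all WT libraries, and all SE libraries lay below them. Fcgr1 was lower in SE than in WT by 1.23-fold (log2 change -0.30, standard error 0.07, edgeR adjusted p = 0.0157). It was lower in SE than in SA by 1.46-fold (log2 change -0.54, standard error 0.07, edgeR adjusted p = 6.44e-05). The difference of SA from WT, a log2 change of 0.24 (95% interval 0.10 to 0.39), did not pass the threshold (edgeR adjusted p = 0.0569).

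The SE against SA call for Fcgr1 held in all 18 alternative settings, with a highest adjusted p of 0.00112. The SE against WT call was lost without WT1, WT3 or SE2, and without WT1 and SE2 together, with a highest adjusted p of 0.125, whereas Fcgr1 in SA against WT passed in 5 of the 18 settings. These were DESeq2 (adjusted p = 0.0353) and edgeR with no filter on low counts (adjusted p = 0.0207), without SA3 (0.0229), without SE3 (0.0386), and without WT2 and SE3 together (0.0223). Monocyte markers, of which 2 of 5 were tested, summed to 24.2–27.0 CPM in SA, 14.97–19.8 CPM in SE and 23.5–29.6 CPM in WT. Both tested monocyte genes, Ccr2 and Nr4a1, were lower in SE than in WT. Their part in the result for Fcgr1 was not tested.

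Fcgr3, the low-affinity activating receptor for immune complexes, was the most abundant Fc gamma receptor per kb of transcript. It lies on chromosome 1, at 171051174 to 171064935 on the minus strand. It had 653, 683 and 679 CPM in SA, 769, 752 and 798 CPM in SE, and 738, 824 and 798 CPM in WT. The SA libraries lay below all others, while SE and WT overlapped. Fcgr3 was lower in SA than in WT by 1.17-fold (log2 change -0.23, standard error 0.06, edgeR adjusted p = 0.0297) and higher in SE than in SA by 1.15-fold (log2 change 0.20, standard error 0.06, edgeR adjusted p = 0.0318). Between SE and WT the log2 change was -0.025 (95% interval -0.146 to 0.096, edgeR adjusted p = 0.870). The SA against WT call was lost when WT2, WT3 or any single SA library was left out (highest adjusted p 0.188), and the SE against SA call was lost without WT3, any SA library, SE1 or SE3 (highest adjusted p 0.152).

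Of the 50-base words in the principal Fcgr3 transcript, 12.8% also occur in Fcgr2b, and 4.75% of the Fcgr2b words occur in Fcgr3. With genes outside the family included, 12.5% of the Fcgr2b words occur elsewhere. How reads with several placements were counted is not given in the sources used here, so counts of this pair are uncertain to that extent. The other 8 genes shared no such word with any gene.

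Fcgr4 encodes an activating receptor of intermediate affinity that lies between Fcgr2b and Fcgr3 on chromosome 1, at 171018920 to 171029761 on the plus strand. Per kb of transcript it was the least abundant of the 10. It had 13.4, 14.1 and 11.5 CPM in SA, 16.7, 15.5 and 15.03 CPM in SE, and 19.5, 20.7 and 20.6 CPM in WT, from 224 to 487 counts per library. The 3 groups did not overlap, with SA lowest and WT highest. Fcgr4 was lower in SA than in WT by 1.56-fold (log2 change -0.64, standard error 0.09, edgeR adjusted p = 0.000352), the largest change among the 10 genes in any contrast. It was lower in SE than in WT by 1.28-fold (log2 change -0.36, standard error 0.09, edgeR adjusted p = 0.0283). Between SE and SA the log2 change of 0.28 (95% interval 0.08 to 0.48) did not pass (edgeR adjusted p = 0.0754).

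The SA against WT call for Fcgr4 held in all 18 alternatives (highest adjusted p 0.00458). The SE against WT call was lost without WT3, without any 1 of the SE libraries, and without either pair that stood apart (highest adjusted p 0.133), and the SE against SA difference passed once WT2 and SE3 were left out (adjusted p = 0.0473).

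Fcgr2b encodes the inhibitory receptor for IgG. It lies on chromosome 1, at 170958617 to 170976547 on the minus strand, and 155 bases of its exons, 2.68% of their length, overlap the antisense gene Gm38204. The strand setting of the counting is not given in the sources used here, so reads from that stretch cannot be assigned to one of them. Fcgr2b had 315, 362 and 349 CPM in SA, 488, 502 and 481 CPM in SE, and 388, 438 and 432 CPM in WT. Every SA library lay below every WT library, and every SE library lay above them. Fcgr2b was lower in SA than in WT by 1.23-fold (log2 change -0.29, standard error 0.07, edgeR adjusted p = 0.0126). It was higher in SE than in SA by 1.43-fold (log2 change 0.52, standard error 0.07, edgeR adjusted p = 5.47e-05). Between SE and WT the log2 change of 0.23 (95% interval 0.09 to 0.36) did not pass the threshold (edgeR adjusted p = 0.0519).

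The SE against SA call for Fcgr2b held in all 18 alternatives (highest adjusted p 0.00126). The SA against WT call was lost without WT3 or SA1 (highest adjusted p 0.129), while in SE against WT Fcgr2b passed in 5 settings, among them DESeq2 (adjusted p = 0.0279) and edgeR with no filter (0.0154), without WT2 (0.0235), and without WT2 and SE3 together (0.0053). Dendritic cell markers, of which 4 of 6 were tested, summed to 956–1021 CPM in SA, 1289–1346 CPM in SE and 1154–1188 CPM in WT. Nearly all of that was the integrin gene Itgax. Without Itgax the remaining 5 markers summed to 1.99–3.53 CPM in SA, 1.62–1.98 CPM in SE and 2.24–2.52 CPM in WT. The part of these markers in the result for Fcgr2b was not tested.

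**Figure D2:**
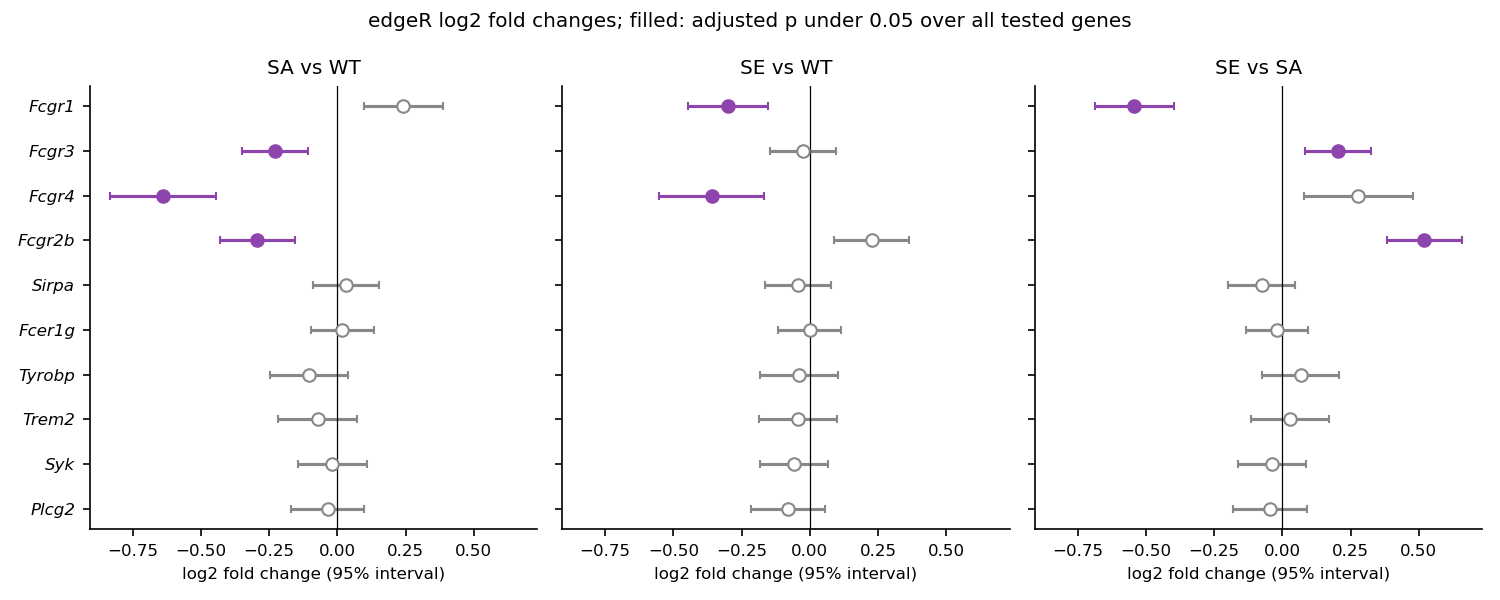
The 3 panels plot the edgeR log2 fold change of each gene with its 95% interval for SA against WT, SE against WT and SE against SA, with filled points at an adjusted p under 0.05. The filled points all belong to Fc gamma receptors, and Fcgr1 and Fcgr2b lie on opposite sides of 0 in each panel, at -0.54 and 0.52 in SE against SA.

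The make-up of the Fc gamma receptor transcripts was compared within each library, which removes the scaling between libraries. Levels were divided by the length of the principal transcript, in CPM per kb. Fcgr2b made up 14.2, 15.5 and 15.3% of the summed level of the 4 receptors in SA, 18.4, 19.2 and 17.8% in SE, and 15.5, 15.8 and 16.0% in WT. The SE libraries held a larger share of the inhibitory receptor than all others, and SA lay just below WT. Fcgr1 made up 6.34, 6.09 and 5.35% in SA, 3.67, 3.49 and 3.31% in SE, and 4.75, 4.03 and 4.15% in WT, in the opposite order. Fcgr3 held 77.5 ± 0.653% in SA, 76.4 ± 0.889% in SE and 77.8 ± 0.278% in WT, and Fcgr4 held 1.61 ± 0.163% in SA, 1.67 ± 0.106% in SE and 2.15 ± 0.0452% in WT (SD, n = 3 each).

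The ratio of the activating receptors (Fcgr1, Fcgr3 and Fcgr4) to Fcgr2b was 6.02, 5.46 and 5.56 in SA, 4.44, 4.21 and 4.63 in SE, and 5.45, 5.34 and 5.25 in WT. The 3 groups did not overlap, with SE lowest and SA highest, although SA2 exceeded WT1 by little. On the log2 scale the ratio differed by 0.09 in SA against WT, by -0.27 in SE against WT and by -0.36 in SE against SA. Each gave p = 0.1 in a two-sided exact permutation test, the smallest p that 3 libraries against 3 allow. The ratio of Fcgr3 to Fcgr2b alone differed by -0.25 in SE against WT and by -0.32 in SE against SA (exact permutation p = 0.1 each), while SA and WT overlapped (difference 0.07, exact permutation p = 0.2). With 9 such ratio comparisons the Benjamini-Hochberg adjusted p was 0.18 where the exact permutation p was 0.1 and 0.225 where it was 0.2, and none could pass at this group size. The summed level of the 4 receptors was 643 ± 18.6 CPM per kb in SA, 751 ± 13.7 CPM per kb in SE and 751 ± 39.4 CPM per kb in WT (SD, n = 3 each).

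**Figure D3:**
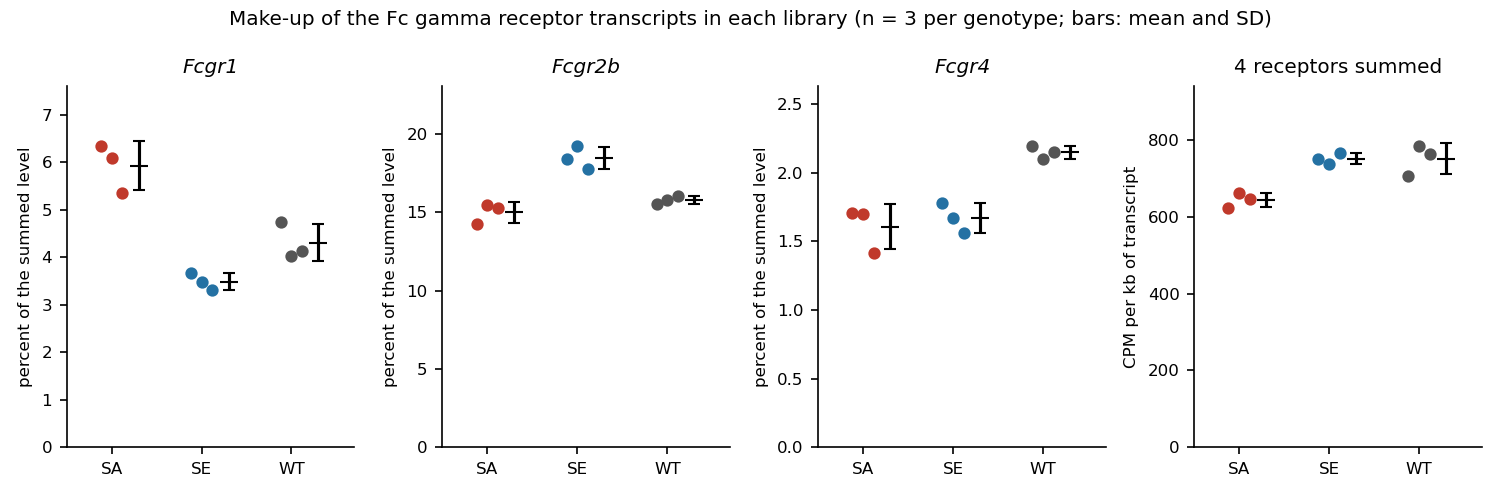
The first 3 panels plot the percent of the summed Fc gamma receptor level (CPM per kb) held by Fcgr1, Fcgr2b and Fcgr4 in each SA, SE and WT library, and the last panel plots the summed level, with mean and SD (n = 3 each) and axes from 0. The Fcgr2b share is 17.8 to 19.2% in SE, above all SA and WT libraries, and the summed level is lowest in SA at 624 to 660 CPM per kb.

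Sirpa, which encodes the inhibitory receptor for CD47, lies on chromosome 2 at 129592835 to 129632228. It had 3056, 3067 and 3139 CPM in SA, 2857, 2842 and 3087 CPM in SE, and 2912, 3145 and 3006 CPM in WT. The groups overlapped in every contrast. The log2 change was 0.03 in SA against WT (95% interval -0.09 to 0.15, edgeR adjusted p = 0.901) and -0.04 in SE against WT (95% interval -0.17 to 0.08, edgeR adjusted p = 0.746). Cd47, its ligand, averaged 191 ± 7.98 CPM in SA, 180 ± 18.8 CPM in SE and 186 ± 11.3 CPM in WT (SD, n = 3 each), and passed in no contrast.

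Neither ITAM adaptor passed a test. Fcer1g, which the activating Fc gamma receptors need to signal, lies on chromosome 1 at 171229572 to 171234365. It had 668, 670 and 653 CPM in SA, 680, 630 and 654 CPM in SE, and 639, 679 and 648 CPM in WT. The groups overlapped throughout, and the 95% intervals of the log2 change ran from -0.10 to 0.13 in SA against WT, from -0.12 to 0.11 in SE against WT and from -0.13 to 0.10 in SE against SA. Changes larger than these bounds are therefore outside the intervals, while smaller ones were not detectable with 3 libraries a group.

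Tyrobp, on chromosome 7 at 30413760 to 30417585, had 707, 695 and 723 CPM in SA, 722, 727 and 776 CPM in SE, and 697, 850 and 739 CPM in WT. WT2 was the highest library, and the groups overlapped. The log2 change was -0.11 in SA against WT (95% interval -0.25 to 0.04, edgeR adjusted p = 0.582) and -0.04 in SE against WT (95% interval -0.18 to 0.10, edgeR adjusted p = 0.820). The ratio of Fcer1g to Tyrobp within a library was 0.791, 0.808 and 0.755 in SA, 0.788, 0.726 and 0.706 in SE, and 0.768, 0.669 and 0.733 in WT, in CPM per kb. It overlapped between the groups, with exact permutation p of 0.2 in SA against WT, 0.8 in SE against WT and 0.2 in SE against SA.

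Trem2 encodes a lipid and apoptotic cell receptor that signals through DAP12. It lies on chromosome 17 at 48346401 to 48354147. It had 1086, 1041 and 1100 CPM in SA, 1121, 1011 and 1159 CPM in SE, and 1064, 1239 and 1091 CPM in WT. WT2 was again the highest library, and no contrast passed, with edgeR adjusted p from 0.762 to 0.860. The 95% interval of the log2 change was -0.22 to 0.07 in SA against WT and -0.19 to 0.10 in SE against WT.

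Syk, the kinase that binds phosphorylated ITAMs, lies on chromosome 13 at 52583173 to 52648792. It had 477, 479 and 485 CPM in SA, 455, 447 and 502 CPM in SE, and 471, 514 and 477 CPM in WT. Plcg2, the phospholipase that acts after SYK to release calcium, lies on chromosome 8 at 117498291 to 117635142. It had 190, 189 and 200 CPM in SA, 180, 177 and 204 CPM in SE, and 191, 207 and 195 CPM in WT. For both genes SE3 was the highest SE library and WT2 the highest WT library. The groups overlapped in every contrast, and edgeR adjusted p ran from 0.553 to 0.949. In SE against WT the log2 change was -0.06 for Syk (95% interval -0.18 to 0.07) and -0.08 for Plcg2 (95% interval -0.22 to 0.05).

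Set against each other per kb of principal transcript in WT macrophages, Tyrobp stood first at 1351 ± 140 CPM per kb and Trem2 second at 1040 ± 86.7 CPM per kb (SD, n = 3 each). Fcer1g followed at 972 ± 31.0 CPM per kb, and its libraries overlapped with those of Trem2. Sirpa came next at 759 ± 29.5 CPM per kb and Fcgr3 at 584 ± 32.5 CPM per kb. A wide step separated these from Fcgr2b at 118 ± 7.68, Syk at 90.8 ± 4.29, Plcg2 at 46.0 ± 1.96, Fcgr1 at 32.2 ± 1.16 and Fcgr4 at 16.1 ± 0.536 CPM per kb. Apart from Trem2 and Fcer1g, no 2 neighbours overlapped in WT. The order of the group means was the same in SA and SE, but in SA the libraries of Fcgr2b (88.8 to 102 CPM per kb) overlapped with those of Syk (89.0 to 90.5 CPM per kb). Levels of Trem2 depend on the length used: with all annotated exons merged (4946 bases in place of 1088) its mean in WT was 229 CPM per kb, below that of Fcgr3.

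The wider pathway was described with 125 further genes in 8 lists, of which 104 were tested. These lists, too, were chosen with earlier results of these data known. In SA against WT 8 were higher and 4 lower, or 11.5% of those tested. In SE against WT 5 were higher and 17 lower, or 21.2%, and in SE against SA 6 were higher and 32 lower, or 36.5%. The shares over all genes were 4.07%, 5.04% and 10.2%. The median log2 change of the 104 genes was 0.048 in SA against WT (0.001 over all genes), -0.038 in SE against WT (-0.003 over all genes) and -0.103 in SE against SA (-0.003 over all genes). The number called ranged from 7 (without WT3) to 21 (without WT2 and SE3) in SA against WT, from 14 (without WT3) to 32 (without WT2 and SE3) in SE against WT, and from 22 (without SA1) to 45 (without WT2 and SE3) in SE against SA. Markers of mesothelial cells and fibroblasts, of which 3 of 8 were tested, summed to 34.1–38.6 CPM in SA, 5.99–9.95 CPM in SE and 2.56–3.96 CPM in WT, led by Col1a1 and with Msln and Wt1 at 0. Their part in these counts was not tested.

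**Figure D4:**
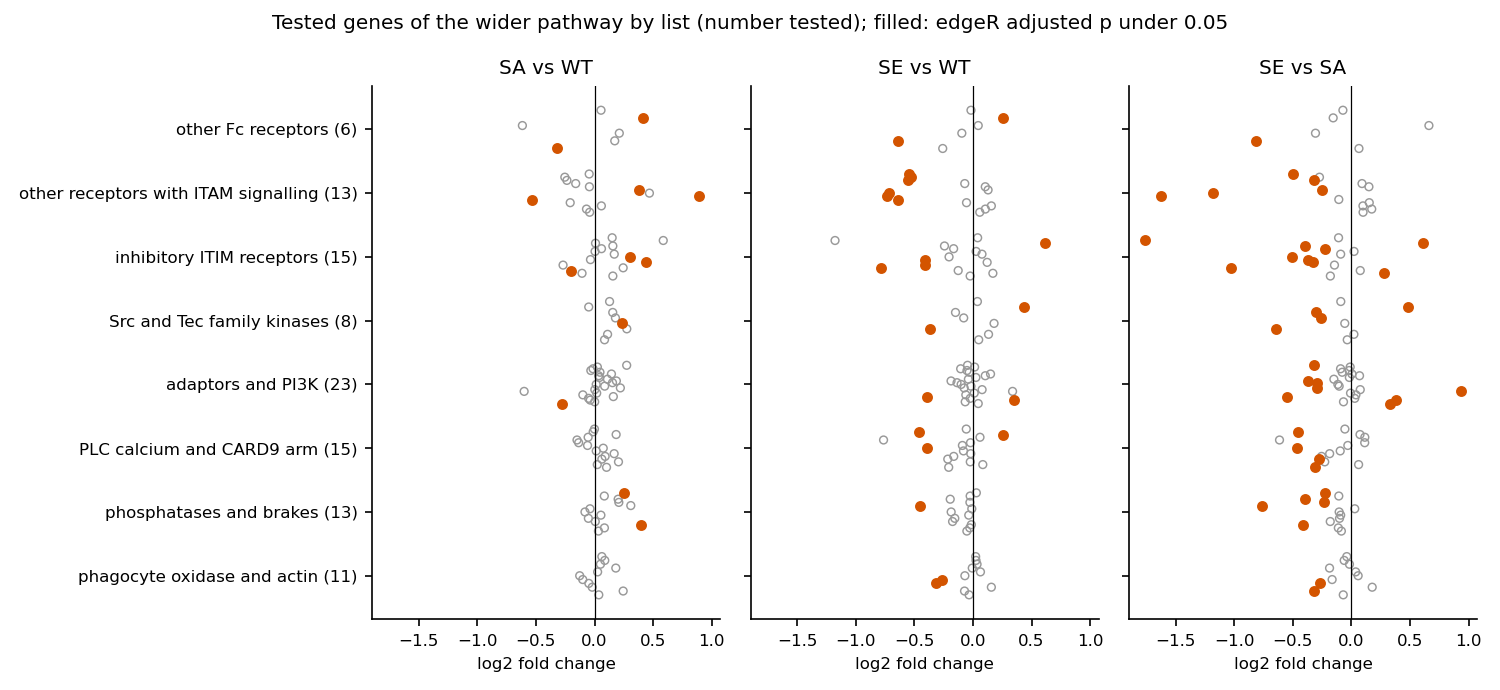
Each row is 1 list of further pathway genes with the number tested, and each point is a gene's edgeR log2 fold change in SA against WT, SE against WT or SE against SA, with filled points at an adjusted p under 0.05. Filled points are most frequent in SE against SA, where 32 of 38 lie below 0, and the lowest filled points are Pilra at -1.76 and Clec4e at -1.62.

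Several lectin receptors that signal through the same adaptors passed in more than 1 contrast. Clec4e encodes Mincle, a receptor for mycobacterial glycolipid that pairs with the FcR gamma chain. It averaged 17.8 ± 2.44 CPM in SA, 5.78 ± 0.224 CPM in SE and 9.61 ± 0.0980 CPM in WT (SD, n = 3 each). It was higher in SA than in WT by 1.86-fold (edgeR adjusted p = 4.63e-05), lower in SE than in WT by 1.66-fold (adjusted p = 0.00151) and lower in SE than in SA by 3.08-fold (adjusted p = 1.05e-07). Clec4d, whose product MCL partners Mincle, was instead lower in both mutants: 117 ± 2.47 CPM in SA, 108 ± 0.714 CPM in SE and 169 ± 12.4 CPM in WT, with edgeR adjusted p of 3.26e-05 in SA against WT and 6.69e-06 in SE against WT.

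Clec4n, which encodes the fungal mannan receptor Dectin-2, averaged 8.88 ± 0.929 CPM in SA, 3.91 ± 0.200 CPM in SE and 6.49 ± 1.40 CPM in WT. It was lower in SE than in SA by 2.27-fold (edgeR adjusted p = 8.71e-05) and lower in SE than in WT (adjusted p = 0.0133, lost without SE1). Clec5a, a DAP12 partner, was higher in SA than in WT (46.5 ± 1.54 CPM in SA against 35.7 ± 2.05 CPM in WT, edgeR adjusted p = 0.00505). Clec7a, the beta-glucan receptor Dectin-1 and the gene of this list with the highest CPM, averaged 1210 ± 56.6 CPM in SA, 1342 ± 134 CPM in SE and 1248 ± 110 CPM in WT and passed in no contrast. The list also held receptors other than lectins and the adaptor gene Hcst. Of its 13 tested genes, 2 were higher and 1 lower in SA than in WT. In SE, 6 were lower than in WT and 5 were lower than in SA. These calls made up 23.1% of the list in SA against WT, 46.2% in SE against WT and 38.5% in SE against SA. Over all genes the shares were 4.07%, 5.04% and 10.2%, in the same order. Sirpb1a, Sirpb1b and Sirpb1c, of 1 family of similar sequence whose counts are uncertain, were all lower in SE than in WT (log2 changes of -0.56, -0.53 and -0.54, edgeR adjusted p of 0.00196, 0.00613 and 0.00194). Sirpb1c was also lower in SE than in SA (adjusted p = 0.00223, by edgeR). Sirpb1a was counted as lower in SE than in SA at an edgeR adjusted p of 0.0448 that held in only 5 of 18 alternatives and was lost with DESeq2 (highest adjusted p 0.194), and the call of Clec5a in that contrast (adjusted p = 0.0405) held in 10 of 18.

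Of the other Fc receptors 6 of 14 were tested. Fcrls, an Fc receptor-like gene of macrophages, was higher in both mutants: 256 ± 4.56 CPM in SA, 230 ± 5.97 CPM in SE and 192 ± 3.03 CPM in WT (SD, n = 3 each), with edgeR adjusted p of 9.12e-05 in SA against WT and 0.00721 in SE against WT. Fcgrt, the neonatal Fc receptor that spares IgG from breakdown, was lower in SA than in WT (79.6 ± 6.49 CPM in SA against 99.6 ± 8.23 CPM in WT, edgeR adjusted p = 0.0261). That call was lost without WT2, WT3, SA1 or SA3 (highest adjusted p 0.199). Fcrl1, an Fc receptor-like gene known from B cells, was lower in SE than in SA (3.15 ± 0.244 CPM in SE against 5.55 ± 0.825 CPM in SA, edgeR adjusted p = 0.00255).

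A list of inhibitory receptors and their close relatives was not limited to genes with an ITIM. Of its 15 tested genes, 2 were higher and 1 lower in SA than in WT. In SE, 1 was higher and 3 lower than in WT, and 2 were higher and 7 lower than in SA. These calls made up 20% of the list in SA against WT, 26.7% in SE against WT and 60% in SE against SA. Over all genes the shares were 4.07%, 5.04% and 10.2%, in the same order. Cd72 averaged 933 ± 60.2 CPM in SA, 746 ± 30.6 CPM in SE and 686 ± 24.9 CPM in WT, and was higher in SA than in WT by 1.36-fold (edgeR adjusted p = 0.000203). Clec12a, which senses uric acid crystals, averaged 258 ± 12.4 CPM in SA, 182 ± 11.1 CPM in SE and 209 ± 11.9 CPM in WT. It was lower in SE than in SA by 1.42-fold (edgeR adjusted p = 6.44e-05), and higher in SA than in WT (adjusted p = 0.00966, lost without WT3 or SA1). Cd300lf, a lipid-binding receptor, was lower in SE than in WT by 1.72-fold (3.83 ± 0.643 CPM in SE against 6.55 ± 0.661 CPM in WT, edgeR adjusted p = 0.00639). Pecam1 was higher in SE than in WT by 1.53-fold (10.3 ± 0.552 CPM in SE against 6.75 ± 1.247 CPM in WT, edgeR adjusted p = 0.0156, lost without WT1 or SE1 and without WT1 and SE2 together). Pilra, at 1.41 ± 0.309 CPM in SA and 0.416 ± 0.199 CPM in SE, was lower in SE by 3.39-fold (edgeR adjusted p = 0.00860, lost without SE1). Pilra had only 4 to 34 counts per library. Lilr4b, the gene of the list with the highest CPM and a close copy of Lilrb4a with uncertain counts, averaged 1334 ± 77.9 CPM in SA, 1141 ± 31.7 CPM in SE and 1280 ± 80.1 CPM in WT, with SE below SA at an edgeR adjusted p of 0.0295 that was lost in 6 of 18 alternatives, among them those without SA1, SA2 or any 1 SE library. Cd33, a receptor for sialic acid, was lower in SE, at 13.6 ± 1.11 CPM, than in WT, at 18.1 ± 0.811 CPM (edgeR adjusted p = 0.0150, lost without WT3, SE1 or SE3 and without WT1 and SE2). Cd300a, the 1 gene of the list lower in SA than in WT (270.5 ± 5.76 CPM in SA against 311 ± 4.29 CPM in WT, edgeR adjusted p = 0.0369), held that call in 7 of 18 alternatives, and the call of Cd22 in SE against SA, given above, held in 9 of 18.

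Src family kinases phosphorylate the ITAM before SYK binds. Of 8 tested Src and Tec family kinases, 1 was higher in SA than in WT. In SE, 1 was higher and 1 lower than in WT, and 1 was higher and 3 lower than in SA. These calls made up 12.5% of the list in SA against WT, 25% in SE against WT and 50% in SE against SA. Over all genes the shares were 4.07%, 5.04% and 10.2%, in the same order. Fgr averaged 49.4 ± 3.53 CPM in SA, 31.7 ± 3.23 CPM in SE and 41.0 ± 4.05 CPM in WT, and was lower in SE than in SA by 1.56-fold (edgeR adjusted p = 0.000172). Lyn was 1.23-fold lower in SE than in SA (adjusted p = 0.00405, by edgeR). Fyn was the 1 gene of the list higher in SA than in WT (200.4 ± 3.42 CPM in SA against 170.2 ± 1.08 CPM in WT, edgeR adjusted p = 0.0130, lost without WT3, SA1 or SA2). Src itself moved the other way, with 21.1 ± 2.50 CPM in SA, 29.5 ± 1.67 CPM in SE and 21.9 ± 1.60 CPM in WT (SE against SA edgeR adjusted p = 0.00249, SE against WT adjusted p = 0.00942, the second lost without WT3 and without WT1 and SE2). Csk, the kinase that restrains the family and the gene of this list with the highest CPM, averaged 251 ± 13.9 CPM in SA, 254 ± 6.54 CPM in SE and 232 ± 17.2 CPM in WT and passed in no contrast.

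Of 23 tested adaptors and PI3K subunits, 1 was lower in SA than in WT. In SE, 1 was higher and 1 lower than in WT, and 3 were higher and 5 lower than in SA. These calls made up 4.35% of the list in SA against WT, 8.70% in SE against WT and 34.8% in SE against SA. Over all genes the shares were 4.07%, 5.04% and 10.2%, in the same order. Blnk, an adaptor that links SYK to phospholipase, averaged 142 ± 2.53 CPM in SA, 178 ± 3.27 CPM in SE and 172 ± 1.40 CPM in WT (SD, n = 3 each), and was lower in SA than in WT by 1.22-fold (edgeR adjusted p = 0.00341). Cblb, a ubiquitin ligase that dampens ITAM signals, was higher in SE, at 242 ± 3.36 CPM, than in WT, at 190 ± 3.92 CPM (edgeR adjusted p = 0.00120). Fyb, an adaptor between receptors and integrins, averaged 267 ± 6.003 CPM in SA, 182 ± 12.2 CPM in SE and 239 ± 7.24 CPM in WT, and was lower in SE than in either other group (edgeR adjusted p = 0.000695 against WT and 1.35e-05 against SA). Pik3cg, a catalytic subunit of PI3K, was lower in SE, at 45.6 ± 3.03 CPM, than in SA, at 59.1 ± 2.64 CPM (edgeR adjusted p = 0.00284). Lat, an adaptor known from T cells, had the largest called change of the list, 1.92-fold higher in SE, at 2.07 ± 0.431 CPM, than in SA, at 1.07 ± 0.0876 CPM (edgeR adjusted p = 0.0200). It had 20 to 47 counts per library, and its call was lost without SA1, SA3, SE2 or SE3 and without WT1 and SE2. Pik3ap1, the gene of the list with the highest CPM, averaged 585 ± 24.7 CPM in SA, 540 ± 28.3 CPM in SE and 579 ± 6.45 CPM in WT and passed in no contrast.

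A further list held the phospholipase gene Plcg1 and genes of the calcium and CARD9 arm. Of its 15 tested genes, 1 was higher and 2 were lower in SE than in WT, and 4 were lower in SE than in SA. That is 20% of the list in SE against WT, beside 5.04% of all genes, and 26.7% in SE against SA, beside 10.2%. Rasgrp3, a Ras activator that responds to diacylglycerol, averaged 45.4 ± 2.41 CPM in SA, 33.2 ± 2.02 CPM in SE and 45.7 ± 1.86 CPM in WT, and was lower in SE than in WT by 1.38-fold (edgeR adjusted p = 0.000843). Nfatc2, a calcium-responsive transcription factor, was lower in SE than in SA by 1.38-fold (35.3 ± 3.27 CPM in SE against 48.6 ± 2.35 CPM in SA, edgeR adjusted p = 0.00114). Prkcd, the gene of the list with the highest CPM, was higher in SE than in WT (1491 ± 100 CPM in SE against 1247 ± 55.2 CPM in WT, edgeR adjusted p = 0.0202), a call lost without WT1, WT3 or SE3, without WT1 and SE2 together and when WT and SE were fitted alone. In SA against WT edgeR called 0 of the 15 genes, with 3 (Itpr1, Malt1 and Prkcd) at an unadjusted p under 0.05 and 0 called by DESeq2.

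Of 13 tested phosphatases and other brakes, 2 were higher in SA than in WT. In SE, 1 was lower than in WT and 5 were lower than in SA. These calls made up 15.4% of the list in SA against WT, 7.69% in SE against WT and 38.5% in SE against SA. Over all genes the shares were 4.07%, 5.04% and 10.2%, in the same order. Dok2, an adaptor that restrains Ras, averaged 127 ± 5.17 CPM in SA, 95.9 ± 4.32 CPM in SE and 96.8 ± 1.19 CPM in WT, and was higher in SA than in WT by 1.31-fold (edgeR adjusted p = 0.000454). Ubash3b, a phosphatase that acts on SYK, was higher in SA than in WT (119.6 ± 4.78 CPM in SA against 100.4 ± 4.18 CPM in WT, edgeR adjusted p = 0.0198, lost without WT3, SA1 or SA3). Ptpn22, a phosphatase that acts on SYK and Src kinases, was lower in SE than in SA by 1.70-fold (15.02 ± 1.90 CPM in SE against 25.5 ± 1.07 CPM in SA, edgeR adjusted p = 0.000295). Ptprc, which encodes CD45, was lower in SE than in SA by 1.31-fold (478 ± 36.5 CPM in SE against 628 ± 3.10 CPM in SA, edgeR adjusted p = 0.00114). Inpp5d, the lipid phosphatase recruited by Fcgr2b, averaged 344 ± 7.50 CPM in SA, 321 ± 25.9 CPM in SE and 357 ± 16.0 CPM in WT and passed in no contrast. Of the 11 genes for the phagocyte oxidase and actin, 2 were lower in SE than in WT and 2 were lower in SE than in SA. Each is 18.2% of that list, beside 5.04% of all genes in SE against WT and 10.2% in SE against SA. Cybb, the catalytic subunit of the oxidase, averaged 1128 ± 27.8 CPM in SA, 939 ± 46.5 CPM in SE and 1167 ± 31.7 CPM in WT, and was lower in SE than in WT by 1.24-fold (edgeR adjusted p = 0.00298) and also lower in SE than in SA (adjusted p = 0.00557). Ncf1, a cytosolic subunit, was lower in SE, at 295 ± 2.50 CPM, than in WT, at 354 ± 8.43 CPM (edgeR adjusted p = 0.00657, lost without WT3). Coro1a, an actin-binding protein, was lower in SE, at 286 ± 15.3 CPM, than in SA, at 357 ± 26.0 CPM (edgeR adjusted p = 0.0197, lost without SA1, SA3, SE1 or SE2). In SA against WT edgeR called 0 of the 11, with 3 at an unadjusted p under 0.05 and 0 called by DESeq2.

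For each of the 4 receptors, genes with the most similar pattern were sought among 9108 genes of at least 5 CPM, by the root mean square difference of log2 CPM over the 9 libraries after centring. Fcgr1 was nearest to Clec12a (0.057) and Ifi27l2a (0.058), beside an SD of 0.245 for Fcgr1 itself. Fcgr2b was nearest to Cisd1 (0.062) and Fam117a (0.067), beside its own SD of 0.238. For Fcgr3, Prune1 lay at 0.037, beside 0.119, and Fcgr4 was nearest to Olfml3 (0.087) and Tmem154 (0.109), beside 0.292. These distances describe the 9 libraries and were not tested.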

How the data were processed

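Poly(A) RNA of mouse peritoneal macrophages was sequenced in 9 libraries, 3 per genotype. The authors deposited raw read counts per Ensembl gene. The tools were HISAT2 2.1.0 and featureCounts with genome build mm10, per the submitters' processing notes. Not given in the sources used here were the featureCounts version, its annotation, its strand setting and its treatment of reads with several placements. GENCODE M21 gave symbols and positions for 55141 of the 55401 genes. Library totals of 17286617 to 24618608 counts set the precision.

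One model of the 9 libraries was fitted with edgeR 4.0.16 under R 4.3.3 (TMM scaling, filterByExpr with a minimum count of 10 and a minimum total of 15, robust quasi-likelihood F test, genotype as the only factor, 6 residual degrees of freedom). A gene was called where its p, adjusted by Benjamini-Hochberg across the 13501 genes tested, was under 0.05. CPM are TMM-scaled, and fold changes are edgeR's. Ratios within libraries were compared with exact permutation tests in scipy 1.17.1. Alternatives were DESeq2 1.42.0, other scalings and filters, a replicate block, fits of only the compared genotypes and left-out libraries. Those for pathway genes, for counts of calls and for merged exon length were added after seeing the data. The steps were tested on simulated counts. Of 50 genes changed 1.25-fold, 30% were recovered in SA against WT, 26% in SE against WT and 22% in SE against SA. Of 50 genes changed 1.5-fold, 68%, 74% and 74% were recovered, in the same order. False calls made up 5.96%, 5.41% and 5.48% of calls.

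Whether replicate numbers pair the libraries is not stated, and the main model did not pair them. The members and the gene lists were chosen with earlier results of these data known. Pathway genes named are, per list and contrast, the 2 called genes with the largest rise and the 2 with the largest fall, the gene with the highest CPM, and some further called genes. Cd47, Inpp5d, Trim21, the untested genes and those given for lists without a call lie outside that rule and were named with their values known. Promoter windows come from RefSeq (GRCm38.p6). Some genes are not reported here.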

Additional observations from a re-analysis of the deposited data

How the results depend on the processing

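Of the 30 results for single genes (10 genes in 3 contrasts), 8 were called, and none of these turned its direction in any of 18 alternatives; 8 uncalled results did, at sizes up to 0.046 on the log2 scale. The calls gained or lost are given with each gene, or below for the replicate block, and the causes were not tested. Leaving out 1 library at a time moved the number of called genes to 297–652 in SA against WT, beside 549, to 292–1097 in SE against WT, beside 680, and to 781–1762 in SE against SA, beside 1376. Without WT2 and SE3 the numbers were 903 in SA against WT and 1215 in SE against WT. Without WT1 and SE2 there were 372 in SE against WT, and with only the SE and WT libraries fitted there were 438. Fits with fewer libraries hold fewer residual degrees of freedom.

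The log2 changes that turned sign, all uncalled, were as follows. For SA against WT, Syk gave 0.01 with library totals alone, 0.022 without WT2 and SE3, and -0.042 to 0.02 with 1 library left out, and Plcg2 gave 0 without WT2 and SE3. For SE against WT, with 1 library left out, Fcgr3 gave -0.073 to 0.008, Fcer1g -0.029 to 0.026, Tyrobp -0.103 to 0.046 and Trem2 -0.091 to 0.026. Fcer1g also gave 0 with no filter, 0.026 without WT2 and SE3 and 0.004 without WT1 and SE2, and Tyrobp gave 0.013 without WT2 and SE3. For SE against SA, Fcer1g gave 0.002 without WT1 and SE2 and -0.047 to 0.007 with 1 library left out. Trem2 gave -0.017 with library totals alone, -0.014 without WT2 and SE3 and -0.013 to 0.084 with 1 library left out. The Fcer1g to Tyrobp ratio in SE against WT gave -0.022 to 0.078 with 1 library left out.

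Whether the replicate numbers mark a shared animal, litter or day is not stated in the labels. The correlation of same-numbered deviations ran from -0.195 to 0.105. That of differently numbered ones ran from -0.261 (WT1 and SE3) to 0.27 (WT2 and SE3). With 3 libraries a group these correlations cannot exclude pairing. With the replicate block edgeR called 500 genes in SA against WT, 568 in SE against WT and 1189 in SE against SA, and Fcgr2b passed in SE against WT (log2 change 0.229, adjusted p = 0.0449). No other call among the 10 genes changed under the block. Of the pathway genes, calls lost under the block were Cd300a in SA against WT and, in SE against SA, Sirpb1a, Clec5a, Cd22 and Lilr4b. Fcgr4, at 224 to 487 counts per library, is the one of the 10 most limited by depth.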

Other observations

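Several genes of the Fc receptor family had too few counts to be tested in these macrophages. Fcer1a, the IgE-binding chain of the high-affinity IgE receptor, Fcmr and Fcamr, receptors for IgM, and Pigr, the carrier of polymeric immunoglobulin, had 0 counts in every library. Fcer2a, the low-affinity IgE receptor, reached 1 count, and Fcrla reached 9 counts in its highest library. Among receptors that pair with DAP12 or the FcR gamma chain, Trem1 reached 12 counts, Trem3 reached 4 counts and Oscar reached 3 counts, whereas Trem2 had 17379 to 26638 counts per library. Trim21, an Fc receptor of the cytosol, averaged 34.6 ± 1.27 CPM in SA, 32.9 ± 1.61 CPM in SE and 33.3 ± 0.342 CPM in WT (SD, n = 3 each) and passed in no contrast.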
